A study of Sus scrofa with 13 samples.

Results

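The change of wild-type (WT) pig skeletal muscle between 2 days and 3 months of age was taken from 6 arrays of biceps femoris, a large hind limb muscle, out of the 13 arrays in the study. The members were the 3 arrays labelled wild type at 3 months and the 3 labelled wild type at 2 days, chosen by age and genotype alone, with no use of measured values. All animals were German Landrace pigs. The other 7 arrays came from DMD KO animals, 4 at 2 days and 3 at 3 months. They entered the estimate of the spread and the comparison of the genotypes. The choice of each gene's probe set and the level below which no fold is given also used them. DMD KO animals carried a deletion of exon 52 of DMD, the gene for dystrophin, which anchors the fibre's cytoskeleton to the matrix, and were made by nuclear transfer from modified primary kidney cells. Their muscle was taken at necropsy right after death, whereas WT piglets were euthanised at matching ages, and the labels give neither sex nor litter for any animal. Animals of the 2 ages were different individuals, so each difference is between groups and does not follow an animal through time. The arrays are described as biological replicates.

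At birth a pig's limb muscle is not yet an adult muscle. Its fibres still hold fetal forms of some contractile proteins, they are surrounded by a matrix that is being laid down, and the newborn lives on fat-rich milk. Over the following weeks fibres thicken by adding protein and myofibrils. Most fibres of a limb muscle such as biceps femoris take on a fast, glycolytic character. In such fibres glycogen is a store of quick energy, and some enzymes buffer adenine nucleotides. Fast fibres are known for rapid calcium cycling, for the Z-disc protein alpha-actinin-3 and for high glycolytic capacity, and slow fibres for slow myosin, fat oxidation and many mitochondria.

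The values are log2 levels of 21893 probe sets, and 10283 genes carried a name of their own, each represented by its brightest probe set over the 13 arrays. A difference of 1 on the log2 scale is a 2-fold change. The array medians lay close together (7.327 to 7.378 on the WT arrays). An array yields no counts, and the precision depends on how few arrays there are and on the spread within groups. The markers of muscle fibres that could be measured, 5 of 10 (NEB, ACTA1, MYH1, MYH7 and RYR1), stood between the 94.7th and 99.9th percentile of every WT array. WT replicate 3 at 2 days stood apart. Its mean correlation with the other arrays of its group was 0.943, against 0.966 and 0.958 for replicates 1 and 2 and 0.969 to 0.975 at 3 months, and its 95th percentile was the lowest of all 13 arrays (9.215, others up to 9.827). The typical SD within a group was 0.189 at 2 days and 0.157 at 3 months (median over named genes), larger than the 0.12 and 0.139 of the DMD KO groups.

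With growth, many genes of fast fibres, glycolysis and glycogen handling were higher, and the cardiac form of actin, calsequestrin-2, the pyruvate dehydrogenase kinase PDK4, some matrix genes and a few enzymes of fat oxidation and cholesterol synthesis were lower. In limma's fit with Benjamini-Hochberg adjustment over all probe sets, 633 probe sets (2.89%) were called at an adjusted p under 0.05, 375 higher and 258 lower at 3 months. Of the named genes 199 (1.94%) were higher and 143 (1.39%) were lower, and these shares are the background for every count of list members below. The lists were chosen with earlier results of these data known, so their shares are descriptive and test no enrichment. The background also includes dim genes. Among the 5652 named genes left by a filter on dim probe sets, 205 were higher and 137 lower. More than a 2-fold difference was reached by 85 of the higher and 44 of the lower genes. The median difference over all named genes was -0.01. None of the 342 called genes had overlapping values between the 2 ages, as was so for 1493 genes in all.

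How many genes lay on each side depended on single arrays. Without WT replicate 3 at 2 days, 154 named genes were higher and 270 lower, and of the genes called with all arrays 144 of 199 and 114 of 143 were still called. Without WT replicate 1 at 3 months the counts were 100 and 143, and without WT replicate 3 at 3 months they were 132 and 69. No conclusion on the balance of rises and falls can thus be drawn from these arrays. Of the 342 called genes 144 (87 higher and 57 lower) were called whichever of the 6 WT arrays was left out, and the sign of all 342 held in each of those fits. The 144 were also called whichever DMD KO array was left out, a step that alters only the estimate of the spread. All these fits took the spread from both genotypes. With the WT arrays alone, 29 named genes were called. A gene below without a remark belongs to those 144. For the others, the number of WT arrays whose omission ended the call is given, with the highest adjusted p. Leaving out 1 DMD KO array also ended some of these calls. This held for each of the 7 arrays in ACAA2, EIF4A2, CD2 and HSPB6. It held for 6 in ACTA1, CPT2, NDUFAB1, COL14A1, HMGB2 and KIF20A, and for 5 in ATP2A1, VCAN and GSN. It held for 4 in SQLE, for 3 in ASPA, COL6A3, ANO5 and PRDX1, for 2 in MYLK2 and NCAM1, and for 1 in CASQ1 and CCDC160.

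**Figure D1:**
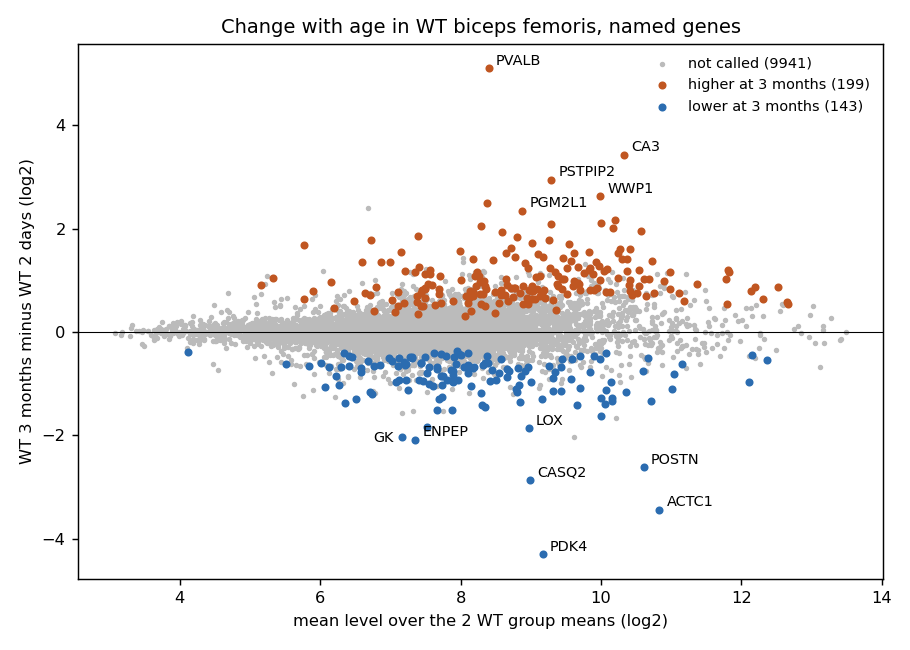
Difference in log2 level between WT at 3 months and WT at 2 days (vertical axis) against the mean of both group means (horizontal axis) for 10283 named genes, with called genes in colour. PVALB and CA3 stand at the top, PDK4 and ACTC1 at the bottom, and most called genes lie within 2 log2 units of 0.

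**Figure D2:**
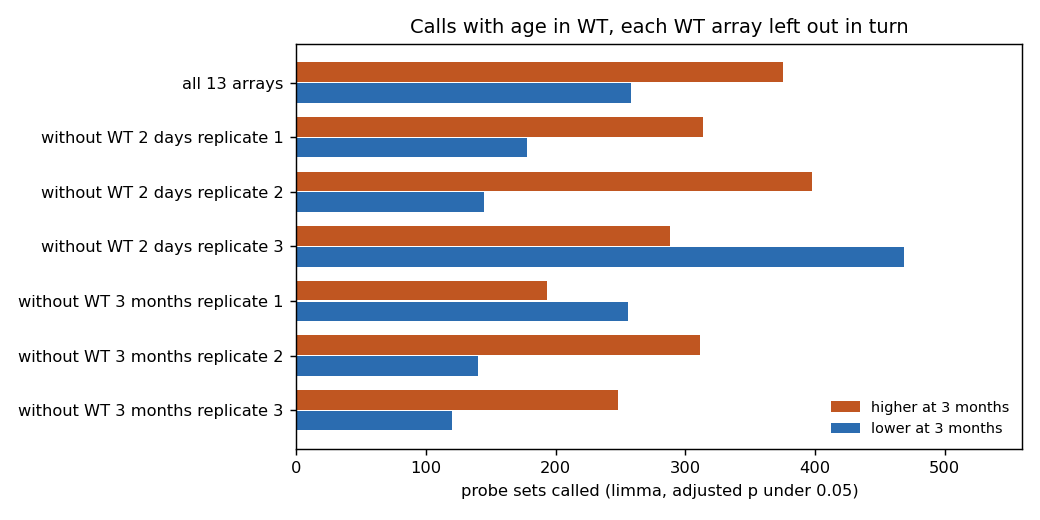
Number of probe sets called higher and lower at 3 months with all 13 arrays and with each WT array left out in turn. With all arrays 375 were higher and 258 lower, and the balance turned without WT replicate 3 at 2 days (288 higher, 469 lower) and without WT replicate 1 at 3 months (193 higher, 256 lower).

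The 15 largest rises were led by PVALB, the soluble calcium buffer parvalbumin, typical of fast fibres. Its level was 6.05, 5.27 and 6.22 in the newborns and 11.07, 10.42 and 11.37 at 3 months, a difference of 5.11 ± 0.32 log2 units (SE, adjusted p = 1.46e-05). The newborn mean lay below the 25th percentile of the arrays (6.535 to 6.609), so no fold is given. CA3, the carbonic anhydrase of muscle cytosol, rose from 8.12, 8.89 and 8.83 to 12.08, 12.28 and 11.76, which is 10.8-fold (3.43 ± 0.26, adjusted p = 4.19e-05). In both genes the lowest grown animal was far above the highest newborn. ACTN3, alpha-actinin-3, stood at 9.36, 8.86 and 9.26 and then at 11.06, 10.89 and 11.57, a 4.04-fold rise (adjusted p = 7.47e-05). A probe set of identical values also bears its name and adds no evidence. MSS51, a mitochondrial protein of skeletal muscle, had the tightest groups of the leading rises, at 7.76, 7.72 and 7.41 against 9.62, 9.41 and 9.65 (3.81-fold, adjusted p = 1.46e-05).

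Next among the rises were PGM1 and PGM2L1, PHKA1 and genes of the ubiquitin system. PGM1, the phosphoglucomutase that links glycogen to glycolysis, rose from 9.52, 8.88 and 8.44 to 10.90, 10.95 and 11.34 (4.34-fold, adjusted p = 0.000322), and its relative PGM2L1, which makes glucose bisphosphate, rose 5.08-fold (adjusted p = 0.000478). PHKA1, the muscle regulatory subunit of phosphorylase kinase, rose 4.53-fold. Its newborn values were spread over more than a log2 unit (9.89, 9.12 and 8.33), and the grown ones were 11.55, 11.01 and 11.33. FBXO40, a muscle F-box protein that marks insulin receptor substrate for breakdown, rose from 7.19, 7.65 and 6.97 to 9.57, 9.20 and 9.18 (4.13-fold). The ubiquitin ligase WWP1 rose 6.19-fold, from 9.27, 9.06 and 7.69 to 11.58, 10.94 and 11.38. SPOPL, an adaptor of cullin ligases, rose by 1.85 log2 units from a newborn mean under the 25th percentile.

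The rest of the 15 were PSTPIP2, an adaptor protein that binds to the cytoskeleton (7.74-fold), TEX9 (5.67-fold), the scaffold HOMER1 (4.24-fold), the zinc finger protein ZNF106 (3.86-fold) and PTER, a hydrolase (3.56-fold). PSTPIP2 was at 7.57, 8.34 and 7.54 in newborns and 11.01, 10.46 and 10.83 later. In 6 of the 15 leading rises (WWP1, TEX9, PGM2L1, PHKA1, HOMER1 and ZNF106) WT replicate 3 at 2 days held the lowest newborn value by more than 0.7. Without that array all 6 were still called.

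**Figure D3:**
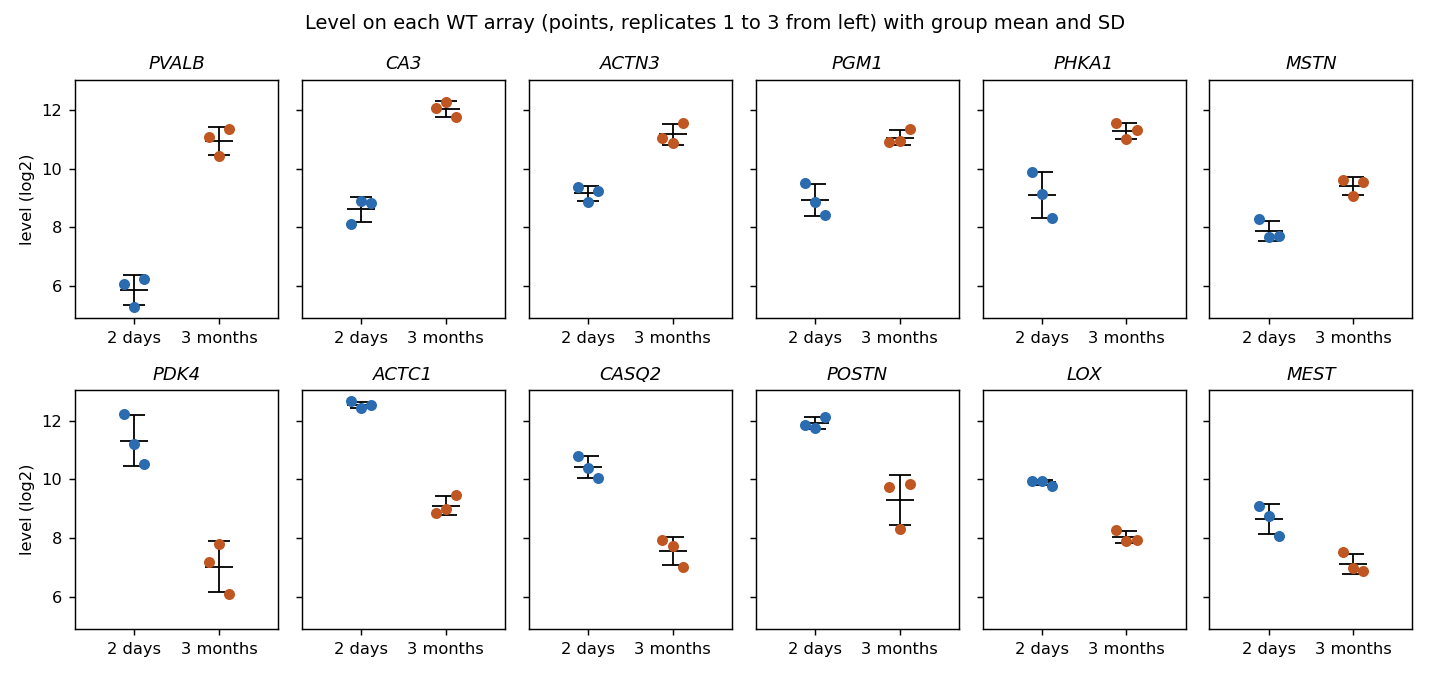
Log2 level on each of the 3 WT arrays at 2 days and the 3 at 3 months, with group mean and SD, for 6 genes that rose (upper row) and 6 that fell (lower row). In each panel the 2 ages do not overlap, with PVALB between 5.27 and 6.22 in newborns and between 10.42 and 11.37 at 3 months.

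The largest fall was that of PDK4, the kinase that shuts pyruvate dehydrogenase and so spares glucose when fat is burned. It stood at 12.24, 11.21 and 10.52 in the newborns, among the brightest genes of the array, and at 7.18, 7.79 and 6.08 at 3 months, 19.8-fold lower (-4.30 ± 0.61, adjusted p = 0.00284). Its spread was wide in both groups, but the lowest newborn was still far above the highest grown animal. ACTC1, the actin of heart and fetal skeletal muscle, fell from 12.67, 12.45 and 12.53 to 8.84, 9.01 and 9.47 (10.9-fold lower, adjusted p = 1.65e-05), and its other probe set fell by 2.46. CASQ2, the calsequestrin of heart and slow fibres, which stores calcium in the sarcoplasmic reticulum, fell from 10.80, 10.40 and 10.05 to 7.93, 7.73 and 7.01 (7.25-fold lower, adjusted p = 8.7e-05).

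Genes of matrix proteins and of collagen crosslinking, and ANXA2, came next. POSTN, periostin, fell from 11.86, 11.76 and 12.14 to 9.74, 8.31 and 9.85 (6.14-fold lower, adjusted p = 0.0043), and LOX, lysyl oxidase, which crosslinks collagen, from 9.95, 9.96 and 9.79 to 8.28, 7.90 and 7.94 (3.63-fold lower, adjusted p = 5.97e-05). The proteoglycan ASPN, asporin, was 3.1-fold lower. Its call ended without 2 of the WT arrays, replicates 1 and 2 at 2 days (adjusted p = 0.0589 and 0.0555). ANXA2, the membrane-binding annexin A2, was 2.61-fold lower (adjusted p = 0.00251).

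The remaining genes among the 15 largest falls had varied roles. ENPEP, the peptidase that trims angiotensin, and GK, glycerol kinase, fell by 2.09 and 2.03 log2 units to means under the 25th percentile. MEST, an imprinted gene of fetal growth, fell from 9.08, 8.77 and 8.07 to 7.51, 6.98 and 6.88 (2.86-fold lower, adjusted p = 0.00597). The kinase NRK (2.72-fold lower) and DDIT4L, a brake on mTOR signalling (2.67-fold lower), fell as well. ASPA, the enzyme that splits N-acetylaspartate, fell by 1.83, and SQLE and MSMO1, enzymes of cholesterol synthesis, by 1.51 and 1.40. The ASPA call ended without 4 of the 6 WT arrays (up to adjusted p = 0.14, without replicate 2 at 3 months), and so did that of SQLE (up to 0.117, without the same array).

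In the contractile apparatus, most measured fast-fibre genes rose, while slow-fibre genes went both ways. Of 12 measured fast-fibre genes 8 rose (66.7%, against 1.94% of all named genes), none fell, and the list's median difference was 0.58. Besides PVALB and ACTN3, the rises were in MYBPC2, fast myosin-binding protein C (9.26, 8.41 and 8.87 against 10.36, 10.23 and 10.54, 2.89-fold, adjusted p = 0.00257), and MYOZ1, a Z-disc partner of calcineurin in fast fibres (2.17-fold, adjusted p = 0.0106). These 4 were called without any given WT array. The other 4 moved by less than 1 log2 unit. TNNC2, fast troponin C, rose by 0.65, ATP2A1, the fast-fibre calcium pump, by 0.60, the myosin light chain kinase MYLK2 by 0.56, and CASQ1, the calsequestrin of fast fibres, by 0.55. These 4 calls ended without 4, 5, 4 and 6 of the WT arrays, with adjusted p up to 0.102, 0.149, 0.115 and 0.104. Without WT replicate 3 at 2 days 5 of the 12 were called, and without replicate 3 at 3 months 4. MYH1, the myosin heavy chain of fast 2X fibres, was at 12.85, 12.23 and 12.07 in newborns and 12.22, 12.37 and 12.17 later, with overlapping groups (-0.13 ± 0.18, adjusted p = 0.893), and its difference became 0.11 when WT replicate 1 at 2 days was left out. MYL1, the fast essential light chain, stood above 13 on all WT arrays (0.04 ± 0.10, adjusted p = 0.935, and turning to 0.00 without WT replicate 1 at 3 months and -0.04 with array weights). In whole muscle, a change in the number of fibres or cells of a type and a change in RNA per cell cannot be told apart.

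Of 13 slow-fibre genes 1 rose and 1 fell, with a median of 0.28. The rise was in TNNC1, slow and cardiac troponin C, at 9.13, 10.01 and 9.29 against 11.26, 11.76 and 10.22 (1.60 ± 0.32, adjusted p = 0.0202). Its call ended without 3 of the WT arrays (adjusted p up to 0.0676, without replicate 1 at 3 months). The fall was that of CASQ2. MYH7, the slow myosin heavy chain, was at 10.23, 10.66 and 10.23 and then 11.76, 12.33 and 10.46, and did not pass the test (1.14 ± 0.35, adjusted p = 0.121). The slow light chains MYL3 (0.95, adjusted p = 0.241) and MYL2 (0.55, adjusted p = 0.156) did not pass either. In all 4 of these genes WT replicate 3 at 3 months was the lowest of its group. That array was also the lowest for CSRP3, muscle LIM protein, a sensor of stretch (9.51, 10.67 and 7.97 against 11.25, 11.02 and 10.87, -1.66 ± 0.52, adjusted p = 0.128), so the grown animals differed among themselves in these genes by about as much as the ages did.

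Isoforms that replace each other could be followed in few families, because most developmental forms had no named probe set. For sarcomeric actin, ACTC1 fell by 3.44 while ACTA1, the adult skeletal form, rose by 0.54 (11.62, 11.31 and 11.64 against 11.90, 12.05 and 12.22, adjusted p = 0.0452). The ACTA1 call ended without 4 of the WT arrays and without 6 of the 7 DMD KO arrays (adjusted p up to 0.175, without WT replicate 3 at 3 months). The coding sequences of these actins are close, and how far a probe set also reads the other transcript was not tested. For calsequestrin, CASQ2 fell by 2.86 and CASQ1 was 0.55 higher. Embryonic light chain MYL4 was dim at both ages (0.48 ± 0.18, adjusted p = 0.229). NCAM1, the adhesion molecule of immature and denervated fibres, fell by 0.52, and its call ended without 5 of the WT arrays (adjusted p up to 0.127, without replicate 3 at 3 months). Of the 7 measured developmental genes ACTC1 and NCAM1 were the 2 that fell, none rose, and the list median was -0.09.

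Sarcomere structure as a whole moved little, with 2 of 21 genes higher, none lower and a median of 0.18. Beside ACTA1, the rise was in TMOD4, the tropomodulin that caps thin filaments in skeletal muscle, from 9.997, 9.997 and 9.809 to 11.14, 11.03 and 11.23 (2.29-fold, adjusted p = 0.00246). Among 11 genes of excitation-contraction coupling, HRC, the histidine-rich calcium-binding protein of the sarcoplasmic reticulum, rose (9.23, 9.19 and 9.23 against 10.26, 10.04 and 10.15, 1.91-fold, adjusted p = 0.00238), and ASPH, the locus of junctin and junctate, fell (1.8-fold lower, adjusted p = 0.00662). RYR1, the calcium release channel, was 0.75 higher with an adjusted p of 0.0708 in its brightest probe set and 0.73 higher with 0.0439 in the other, so its call hung on the choice of probe set. Of 8 membrane channels and pumps 1 rose, ANO5, a membrane repair protein (1.05 ± 0.24, adjusted p = 0.0328). It lost the call without 2 of the WT arrays and 3 DMD KO arrays (up to 0.121, without WT replicate 3 at 3 months). In the dystrophin complex 2 of 8 genes rose and 1 fell. SNTB1, a syntrophin, was 1.94-fold higher (9.31, 9.16 and 9.12 against 10.24, 10.16 and 10.05, adjusted p = 0.00135), SGCB, beta-sarcoglycan, 1.86-fold higher and SGCE, epsilon-sarcoglycan, 1.9-fold lower. SGCB was no longer called without 2 of the WT arrays (up to 0.107, without replicate 3 at 3 months). DMD itself (-0.17, adjusted p = 0.834) and its fetal-type relative UTRN (-0.56, adjusted p = 0.169) did not pass.

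Most measured glycolysis genes were higher at 3 months. Of 16 measured genes 9 rose (56.2%), none fell, and the median was 0.90. The count stayed at 8 or 9 whichever WT array was left out. The 9 were the bifunctional regulator PFKFB1, phosphoglucose isomerase GPI, triosephosphate isomerase TPI1, GAPDH, phosphoglycerate kinase PGK1, the muscle mutase PGAM2, the muscle enolase ENO3, pyruvate kinase PKM and the glycerophosphate dehydrogenase GPD1, which shuttles electrons from glycolysis to mitochondria. PGAM2 rose from 9.65, 9.51 and 9.85 to 11.06, 10.84 and 11.35 (2.66-fold, adjusted p = 0.000831). GPI went from 11.53, 11.25 and 10.82 to 12.29, 12.24 and 12.69 (2.31-fold, adjusted p = 0.0046). TPI1 rose 2.28-fold, GPD1 2.37-fold, PKM 2.05-fold, ENO3 2.04-fold, PGK1 1.92-fold and GAPDH 1.82-fold. The steps named thus rose by similar amounts, about a doubling each. PFKFB1, which sets the level of the activator of phosphofructokinase, rose most, from 8.10, 7.95 and 7.66 to 9.67, 9.19 and 9.74 (3.09-fold, adjusted p = 0.00539). The ENO3 call ended without 4 of the WT arrays (adjusted p up to 0.0862, without replicate 3 at 3 months). Neither hexokinase passed, the general form HK1 (-0.15, adjusted p = 0.758) or the muscle form HK2 (-0.09, adjusted p = 0.904), nor did the general enolase ENO1 (-0.08, adjusted p = 0.948, and 0.09 without WT replicate 2 at 3 months), which was dim. The difference between ENO3 and ENO1 was not itself tested.

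Glycogen handling split into genes that rose by more than 2-fold and genes that did not pass the test. Of 16 measured genes 6 rose (37.5%), none fell, and the list median was only 0.18. PHKA1 and PGM1 led. PPP1R3A, which brings protein phosphatase 1 to muscle glycogen, rose 2.9-fold, STBD1, which tethers glycogen to membranes, 2.72-fold (8.19, 7.96 and 8.02 against 9.47, 9.62 and 9.41, adjusted p = 0.000188), GYG1, glycogenin, the primer of glycogen, 2.52-fold (8.32, 8.45 and 7.98 against 9.67, 9.47 and 9.59, adjusted p = 0.000156) and PYGM, muscle glycogen phosphorylase, 2.24-fold (11.58, 11.15 and 10.99 against 12.43, 12.27 and 12.52, adjusted p = 0.00864). The list's other 10 genes lay between -0.59 and 0.26. The PPP1R3A call ended without 2 of the WT arrays (adjusted p up to 0.0811, without replicate 3 at 3 months).

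Among enzymes that buffer adenine nucleotides and pH, 4 rose and the others did not pass. Of 8 phosphagen and nucleotide genes 2 rose, AK1, adenylate kinase of muscle cytosol (9.83, 9.39 and 9.54 against 11.04, 10.85 and 11.13, 2.67-fold, adjusted p = 0.0117), and the nucleotidase NT5C1A (0.62 ± 0.14, adjusted p = 0.0291). The latter lost its call without 4 of the WT arrays (up to 0.105, without replicate 2 at 3 months). Among 6 genes of carnosine, taurine and pH handling CA3 and GADL1 rose. GADL1, a decarboxylase that makes beta-alanine for carnosine, was 2.84-fold higher (8.38, 8.68 and 7.98 against 9.91, 9.24 and 10.40, adjusted p = 0.0277), a call that ended without 4 of the WT arrays (up to 0.107, without replicate 3 at 3 months).

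A few genes of fat use fell, and most of that list and of the mitochondrial lists did not pass the test. Of 22 genes of fatty acid uptake and oxidation 4 fell (18.2%, against 1.39% of all named genes), none rose, and 18 of the 22 differences were below 0, with a median of -0.26. ACSL1, which activates long-chain fatty acids, fell from 10.69, 11.21 and 10.56 to 9.80, 9.76 and 8.92 (2.51-fold lower, adjusted p = 0.00886). HADHA, the alpha subunit of the trifunctional protein of beta-oxidation, fell 2.45-fold, from 10.11, 10.11 and 9.18 to 8.67, 8.61 and 8.25. The HADHA call ended without WT replicate 3 at 3 months (adjusted p = 0.0578). ACAA2, the last enzyme of beta-oxidation, fell by 0.77 and CPT2, the inner carnitine palmitoyltransferase, by 0.50, with calls that ended without 4 and 5 of the WT arrays (up to 0.154 and 0.135, without replicates 3 and 1 at 3 months). The count for the list was 6 without WT replicate 3 at 2 days and 1 without WT replicate 3 at 3 months. Among 14 genes of glucose uptake and pyruvate entry, PDK4 fell and PDK3, a relative of PDK4, rose from 6.83, 7.19 and 6.75 to 8.42, 7.91 and 7.83 (2.19-fold, adjusted p = 0.00709), so kinases of the same enzyme complex moved in opposite directions.

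Few respiratory chain genes were called. In complex I 1 of 31 genes rose and 1 fell, with a median of 0.04. NDUFB1 rose from 8.98, 9.38 and 8.32 to 10.15, 9.95 and 10.31 (2.37-fold, adjusted p = 0.00842). NDUFAB1, the mitochondrial acyl carrier protein, fell by 0.52, and lost the call without 5 of the WT arrays (up to 0.166, without replicate 3 at 3 months). In complexes II to V the median was -0.17, with 14 of 19 differences below 0, and 1 gene fell (3 without WT replicate 3 at 2 days), ATP5G3, a subunit of the membrane ring of ATP synthase (11.33, 11.64 and 11.36 against 10.76, 10.70 and 10.44, 1.76-fold lower, adjusted p = 0.00558). No gene of the citric acid cycle (14 measured) and none of the 8 mitochondrially encoded genes was called, with medians of -0.03 and -0.14 and 8 and 7 differences below 0. Of 12 carriers and dynamics genes VDAC2, a pore of the outer membrane, and SLC25A4, the muscle ADP/ATP carrier, fell by 0.51 and 0.43. Their calls ended without 3 and 4 of the WT arrays (up to 0.0885 and 0.114, without replicates 2 and 3 at 3 months). PRKAA2, the catalytic subunit of AMP kinase found in muscle, was the 1 gene of 11 in the PGC-1 and nuclear receptor list that rose, from 10.39, 10.35 and 9.38 to 11.69, 11.14 and 11.43 (2.61-fold, adjusted p = 0.00558).

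**Figure D4:**
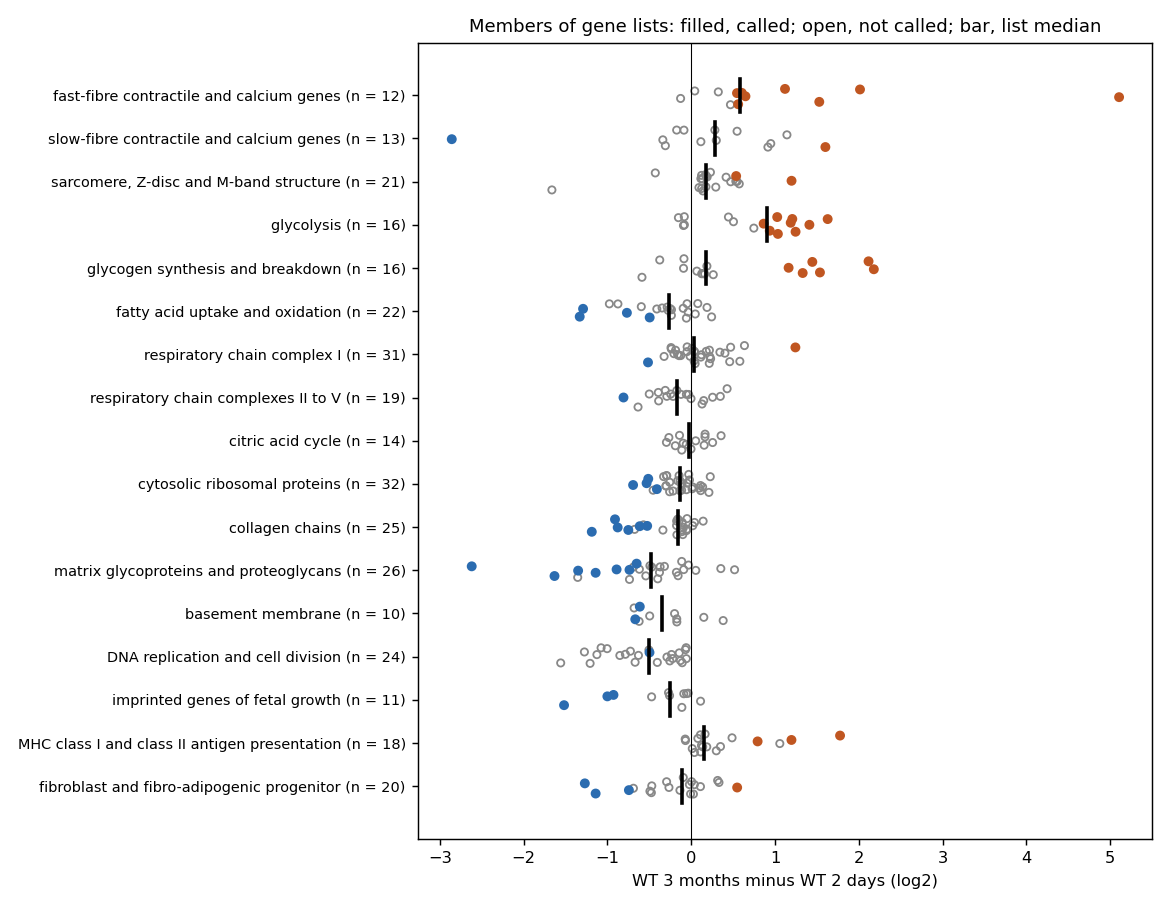
Difference in log2 level between WT at 3 months and WT at 2 days for the measured members of 17 gene lists, with called members filled, the others open, and a bar at each list's median. Glycolysis and fast-fibre genes lie mostly to the right of 0 (medians 0.90 and 0.58), and matrix glycoproteins and cell division genes to the left (medians -0.48 and -0.50).

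Called matrix genes were lower at 3 months in each matrix list. Of 26 glycoproteins and proteoglycans 7 fell (26.9%), none rose, 23 differences were below 0 and the median was -0.48. Beside POSTN and ASPN, the falls were in MFAP5, a microfibril protein (9.76, 9.98 and 10.25 against 9.01, 8.90 and 8.65, 2.2-fold lower, adjusted p = 0.00184), FBN1, fibrillin-1 (1.85-fold lower, adjusted p = 0.00954), BGN, biglycan (8.68, 8.93 and 8.83 against 8.08, 8.01 and 8.14, 1.67-fold lower, adjusted p = 0.00709), VCAN, versican, a large proteoglycan of growing tissue (2.55-fold lower), and FN1, fibronectin (1.57-fold lower). The calls of VCAN and FN1 each ended without 4 of the WT arrays (adjusted p up to 0.116 and 0.0938, without replicates 2 and 3 at 3 months).

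Of 25 collagen chains 6 fell, none rose, and the median was -0.16. COL1A2 and COL3A1, chains of the main fibrillar collagens, fell from 10.16, 10.08 and 9.86 to 9.24, 8.89 and 9.24 (1.88-fold lower, adjusted p = 0.00218) and from 9.24, 9.37 and 9.28 to 8.72, 8.48 and 8.45 (1.68-fold lower, adjusted p = 0.00292). COL5A2, which regulates fibril width, was 1.53-fold lower (adjusted p = 0.0029). COL12A1, which lies along fibrils, was 2.27-fold lower, with a call that ended without WT replicate 2 at 3 months (adjusted p = 0.0598). COL14A1 and COL6A3 fell by 0.88 and 0.52, and each lost its call without 4 of the WT arrays (up to 0.163 and 0.103, without replicate 2 at 3 months). The other 2 probe sets of COL6A3 did not pass. COL1A1 stood near the top of the array in its brightest probe set, at 13.44, 13.50 and 13.42 against 12.65, 12.41 and 13.29. That probe set did not pass (-0.68, adjusted p = 0.0973), while its other one was called (-0.60, adjusted p = 0.0163). The COL1A1 result thus hung on the choice of probe set. The count for collagens was 3 without WT replicate 2 at 3 months.

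Among 16 genes that modify or crosslink collagen LOX and SPARC fell. SPARC, which binds collagen as it is secreted, was at 11.48, 11.50 and 11.40 and then at 10.88, 10.81 and 10.85 (1.53-fold lower, adjusted p = 0.00709), with some of the tightest groups in the data. Of 10 basement membrane genes SPARC and NID2, nidogen-2, fell, and the NID2 call ended without 4 of the WT arrays (up to 0.0835, without replicate 3 at 3 months). Markers of fibroblasts and their progenitors moved in part with the matrix lists, with which they share MFAP5, LUM, DCN and DPT. Of 20 measured 3 fell (PRRX1, 2.41-fold lower at adjusted p = 0.0023, MFAP5, and FNDC1, 1.67-fold lower at 0.00719) and 1 rose (GSN, 0.55, adjusted p = 0.0492, a call lost without 5 of the WT arrays, up to 0.145 without replicate 3 at 3 months). Their mean level ran from 8.57 to 8.59 on the newborn arrays and from 8.29 to 8.45 at 3 months, and the median difference was -0.11. The part of fibroblast number in the matrix result was not tested.

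Genes of cell division had differences below 0 but were rarely called. All 24 measured genes of DNA replication and cell division were lower at 3 months, with a median of -0.50, yet only KIF20A, a motor of cell division, was called (-0.50 ± 0.12, adjusted p = 0.0446), and it was called in none of the 6 fits without a WT array (adjusted p up to 0.149, without replicate 2 at 3 months). TOP2A, the topoisomerase of dividing cells, was at 9.32, 9.998 and 8.75 against 8.74, 7.58 and 8.12 (-1.21 ± 0.37, adjusted p = 0.127), and KIF11, a spindle motor, at 6.86, 7.78 and 6.74 against 6.53, 5.41 and 5.63 (-1.27 ± 0.41, adjusted p = 0.142). The groups nearly met, and replicate 2 was the highest newborn and the lowest grown animal for both genes. Of 12 chromatin genes 3 fell. They were HMGN2, a nucleosome-binding protein (10.42, 10.25 and 10.07 against 9.55, 8.93 and 9.01, 2.12-fold lower, adjusted p = 0.00558), DNMT1, the maintenance DNA methyltransferase (1.89-fold lower), and HMGB2 (2.23-fold lower). DNMT1 lost its call without WT replicate 3 at 3 months (adjusted p = 0.0502), and HMGB2 without 5 of the WT arrays (up to 0.165, without replicate 2 at 3 months).

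Imprinted genes of fetal growth fell in 3 of 11 cases, with none higher and a median of -0.26. Beside MEST these were NNAT, neuronatin (7.72, 8.50 and 7.93 against 6.90, 7.18 and 7.07, adjusted p = 0.0095), and SGCE (8.51, 8.40 and 7.88 against 7.52, 7.14 and 7.36, adjusted p = 0.0101). The count was 3 or 4 in each fit without a WT array. MSTN, myostatin, the secreted brake on muscle growth, rose from 8.27, 7.67 and 7.70 to 9.62, 9.06 and 9.55 (2.88-fold, adjusted p = 0.00211). It was the only gene of 23 in the myostatin and TGF-beta family list that rose, and TGFBR3, a co-receptor of the family, was the only one that fell (by 0.63, a call lost without 3 of the WT arrays, up to 0.0891 without replicate 3 at 3 months). No gene of 15 in the insulin-like growth factor list and none of 19 myogenic and satellite cell genes was called, with medians of -0.10 and 0.04.

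Protein synthesis genes fell in a few members. EEF1A1, elongation factor 1 alpha in its general form, which muscle is known to replace with another form after birth, fell from 12.78, 12.54 and 12.47 to 11.60, 11.65 and 11.62 (1.97-fold lower, adjusted p = 0.000149). The form that replaces it had no named probe set. The helicase EIF4A1 fell 1.89-fold (a call lost without WT replicate 3 at 3 months, adjusted p = 0.0503), while its relative EIF4A2 was 1.78-fold higher (a call lost without 4 of the WT arrays and without any of the 7 DMD KO arrays, up to 0.14 without WT replicate 2 at 3 months). Of 32 ribosomal protein genes 4 fell (12.5%), none rose, and the median was -0.13. RPS12 went from 12.77, 12.56 and 12.58 to 12.06, 12.06 and 12.19 (1.45-fold lower, adjusted p = 0.00712). RPL3, RPS25 and RPL35 fell by 0.69, 0.51 and 0.41, and each lost its call without 3 of the WT arrays (up to 0.086, 0.0628 and 0.0863, without replicate 3 at 3 months, replicate 1 at 2 days and replicate 1 at 3 months). The count for the list was 7 without WT replicate 3 at 2 days and 1 without WT replicate 1 at 2 days. Genes of this kind have many near-identical copies in the genome, and what a probe set reads from them was not tested.

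Stress and breakdown lists gave few calls, while genes of cholesterol synthesis were lower in part. Of 24 atrophy ligase and proteasome genes FBXO40 was the only one called, and of 22 autophagy and lysosome genes none was (median 0.00). ATF4, the transcription factor of the amino acid and reticulum stress response, rose from 8.79, 8.79 and 8.47 to 10.43, 10.44 and 10.32 (3.27-fold, adjusted p = 5.77e-05). It was the only 1 of 16 genes in the list of amino acid synthesis and the ATF4 response that was called, and the list median was -0.01. Among 20 antioxidant genes PRDX6 rose by 0.81, and PRDX1 and GSTM3, a glutathione transferase, fell by 0.64 and 0.85. PRDX6 and PRDX1 lost their calls without 2 and 4 of the WT arrays (up to 0.0796 and 0.131, without replicates 1 and 3 at 3 months). Of 19 heat shock genes the small one HSPB6 fell by 0.46, of 14 clock genes BHLHE41 rose by 1.37 and of 17 splicing regulators PTBP1 fell by 0.41. These calls ended without 5, 4 and 3 of the WT arrays (up to 0.181 and 0.106 without replicate 3, and 0.106 without replicate 2 at 3 months). In cholesterol synthesis all 11 differences were below 0, with a median of -0.49, and SQLE, MSMO1 and NSDHL fell (27.3% of the list, against 1.39% of all named genes). NSDHL went from 8.60, 8.65 and 8.32 to 8.05, 7.62 and 7.90 (1.59-fold lower, adjusted p = 0.0109). No gene of fatty acid and triglyceride synthesis was called (15 measured, 13 differences below 0, median -0.15).

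Immune genes gave 3 called rises in the list of the major histocompatibility complex. SLA-DRA, the alpha chain of the class II molecule DR, was at 7.94, 8.56 and 8.60 in newborns and at 10.49, 10.52 and 9.41 at 3 months (3.43-fold, adjusted p = 0.0124). B2M, the light chain of class I molecules, was at 9.10, 9.36 and 9.24 against 10.69, 10.79 and 9.81 (2.29-fold, adjusted p = 0.0218), and its other probe set rose too (1.12, adjusted p = 0.0173). SLA-DRB1 rose by 0.79 from a level under the 25th percentile. Of the 18 genes of the list 3 rose and none fell, with a median of 0.15, and none was called without WT replicate 2 at 3 months (adjusted p = 0.0502 for SLA-DRA and 0.0776 for B2M). The B2M call also ended without replicate 1 at 2 days (0.0649) and replicate 1 at 3 months (0.0766). Without replicate 3 at 3 months, the lowest of its group for SLA-DRA and B2M, 4 were called. SLA-DRB1 lost its call without 4 of the WT arrays, up to 0.107 without that replicate. These genes vary between animals and belong to families of close relatives, so a probe set may read them unequally, which was not tested.

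Markers of immune cells gave 2 called rises. Of 17 T and NK cell markers 1 rose, CD2 (5.96, 5.78 and 5.77 against 8.23, 8.34 and 6.28, 1.78 ± 0.42, adjusted p = 0.0435), a call that ended without 5 of the WT arrays and each DMD KO array (up to 0.152, without WT replicate 2 at 3 months). The mean level of the list ran from 6.39 to 6.50 in newborns and from 6.43 to 6.73 at 3 months. Of 8 B and plasma cell markers JCHAIN, the joining chain of secreted antibodies, rose from 6.34, 6.43 and 6.31 to 7.50, 7.06 and 7.14 (adjusted p = 0.0124). None of 15 macrophage markers was called (mean level 7.14 to 7.38 and 7.06 to 7.36). The part of these cells in the rise of class II genes was not tested. Of 25 interferon response genes none was called, though 23 differences were above 0 and the median was 0.50. Their mean level was 6.36, 6.69 and 7.35 in newborns and 7.48, 7.98 and 6.66 at 3 months, so the groups overlapped and the animals of an age differed by up to more than a log2 unit. CXCL10, a chemokine of that response, showed it most, at 5.28, 4.95 and 6.21 against 8.19, 9.82 and 5.66 (2.41 ± 1.09, adjusted p = 0.372).

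Markers of other cells of the tissue gave few calls. RGS5, a pericyte marker, was the only 1 of 11 mural cell markers called (0.75, adjusted p = 0.0233, a call lost without 3 of the WT arrays, up to 0.0814 without replicate 1 at 3 months). Among 14 adipocyte markers the only call was GPD1, which is also in the glycolysis list, and 12 of the 14 differences were below 0 (median -0.21). None of the markers of endothelium (12), macrophages, erythroid cells (7), neutrophils and mast cells (7), Schwann cells and nerve (9) or tendon and cartilage (11) was called. Their medians lay between -0.18 and 0.04.

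Whether growth took the same course in DMD KO animals was asked by testing the difference between the changes with age in the 2 genotypes. DMD KO animals also differed from WT in nuclear transfer and in how they died. These cannot be told apart here from the loss of dystrophin. The WT and DMD KO changes share no arrays, but each difference tested uses the same WT arrays as the values above. In all, 634 named genes (6.17%) were called for that difference, with the WT change the more positive in 248 and the more negative in 386. Matrix genes were well represented, and so were genes of the respiratory chain and of cell division. Of the 26 glycoproteins and proteoglycans 19 were called for the difference, the median change in DMD KO was 1.05 against -0.48 in WT, and POSTN fell by 2.62 in WT and rose by 2.17 in DMD KO. The collagen list held 8 called of 25. COL3A1 changed by -0.75 in WT and 1.64 in DMD KO, and COL1A2 by -0.91 and 1.35. The genotypes did not start level. At 2 days the mean of COL3A1 was 9.30 in WT and 7.98 in DMD KO, and at 3 months 8.55 and 9.62. For COL1A2 the means were 10.03 and 8.51, then 9.12 and 9.86. The mean level of the glycoprotein list was 8.812 to 9.001 on WT and 8.083 to 8.385 on DMD KO newborn arrays. At 3 months it was 8.162 to 8.507 and 9.392 to 9.414. The genotype difference at 2 days was not tested. The difference was also called for 7 of 15 macrophage markers (median change 0.84 in DMD KO and 0.04 in WT) and 7 of 20 fibroblast markers (0.05 and -0.11). It was called for 4 of 11 tendon and cartilage markers (0.37 and -0.18) and 5 of 15 complement genes (0.36 and 0.05). These counts are not independent, because the lists share members. The glycoprotein list shares MFAP5, LUM, DCN and DPT with the fibroblast list, and FMOD, KERA, COMP and CILP with the tendon list. COL2A1 and COL11A1 are in the collagen and tendon lists, and C1QA, C1QB and C1QC in the macrophage and complement lists. The mean level of the macrophage markers ran from 8.15 to 8.69 on the DMD KO arrays at 3 months, against 7.25 to 7.39 on those at 2 days, and their part in the matrix difference was not tested. In complex I the difference was called for 11 of 31 genes (median change -0.46 in DMD KO and 0.04 in WT). In complexes II to V it was called for 7 of 19 (-0.72 and -0.17), and among mitochondrial carriers and dynamics genes for 4 of 12 (-0.53 and -0.09). Of the genes of DNA replication and cell division 8 of 24 were called for it (0.28 and -0.50).

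The actin and calsequestrin shifts also differed. ACTC1 changed by -3.44 in WT and 0.32 in DMD KO, and CASQ2 by -2.86 and -0.30. PVALB rose by 5.11 in WT and changed by 0.61 in DMD KO. MEST changed by -1.52 and 1.91, and PDK4 by -4.30 and -1.14. Other large rises were not called as different between genotypes, among them CA3 (3.43 and 2.61), ACTN3 (2.02 and 1.55), PGM1 (2.12 and 1.45), MSS51 (1.93 and 1.62) and MSTN (1.53 and 1.75), which does not show that they were equal. In glycolysis 1 of 16 genes was called for the difference, PFKFB1 (1.63 and -0.64), and the median changes were 0.90 in WT and 0.61 in DMD KO.

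Set side by side, 1013 of the 10283 named genes were called with age in DMD KO. Of all 10283, 586 were higher and 427 lower, which is the background for the overlaps that follow. Of the 199 genes that rose in WT 52 also rose in DMD KO, which is 26.1% of the WT rises and 8.87% of the DMD KO rises. Another 7 fell there (3.52% of the WT rises and 1.64% of the DMD KO falls). Of the 143 genes that fell in WT 25 also fell in DMD KO (17.5% and 5.85%), and 47 rose there (32.9% of the WT falls and 8.02% of the DMD KO rises). FMO2, a flavin monooxygenase, rose by 1.36 in WT and changed by -1.22 in DMD KO. TEX9 (2.50 and -0.49) and CCDC160 (1.69 and -0.31) also changed more positively in WT, by a called difference, and the CCDC160 rise was not called without 5 of the WT arrays (up to 0.0962, without replicate 1 at 3 months).

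**Figure D5:**
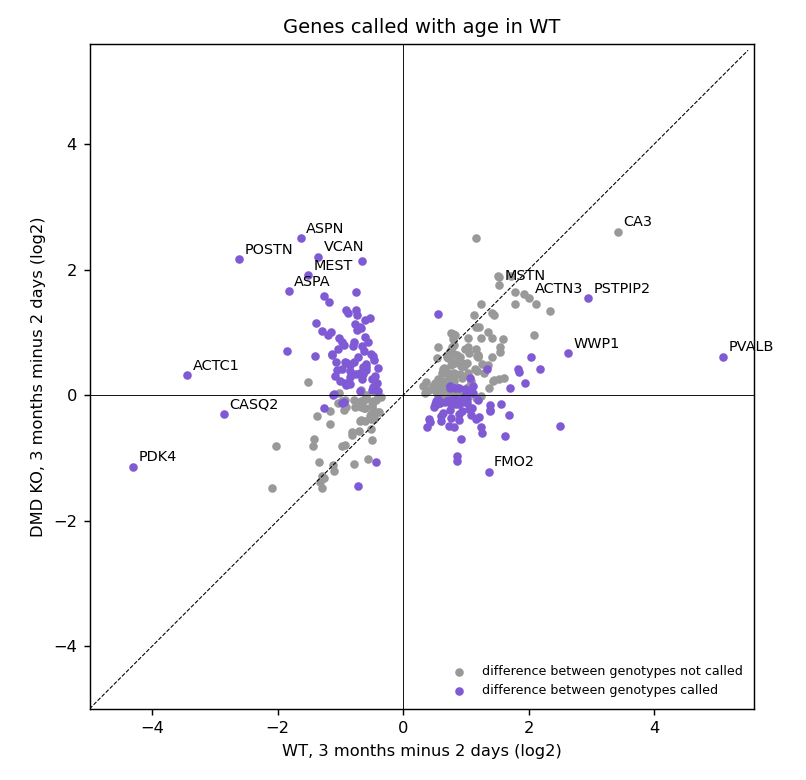
Change in log2 level from 2 days to 3 months in DMD KO (vertical axis) against that in WT (horizontal axis) for the 342 genes called in WT, coloured by whether the difference between the genotypes was called, with a dashed line of equal change. ACTN3 and MSTN lie near the line, while PVALB (5.11 and 0.61) lies far below it and POSTN (-2.62 and 2.17) far above it.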

How the data were processed

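The authors deposited 1 table of log2 values per probe set for 13 arrays. The submitters' processing notes name Affymetrix Power Tools. The sources used here do not give its version, how probes were summarised or how arrays were normalized. The log2 scale is inferred from the values (2.806 to 13.787). Of 21893 probe sets 11028 had 1 gene symbol, 418 several and 10447 none in the platform annotation. Each gene was represented by its brightest probe set, by the mean of 13 arrays (694 genes had several). No array was dropped or imputed.

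Probe sets were fitted with limma 3.58.1 (R 4.3.3; lmFit, eBayes defaults) over 4 groups, with 9 residual degrees of freedom. The contrasts were 3 months minus 2 days in WT and the difference between this change and that in DMD KO. Tests were two-sided, with Benjamini-Hochberg adjustment over all probe sets and calls at an adjusted p under 0.05. SE is limma's moderated standard error, and no fold is given where the lower group mean lay below the arrays' 25th percentiles. Replicates are separate animals per the labels. The fit was also run on simulated data with the same spread in all 4 groups. Those data lack the larger WT spread and the WT array that stood apart, so no conclusion is drawn from that run.

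Gene lists, members and alternatives were chosen with earlier results of these data known. Named genes were the 15 largest called rises and falls without overlap between ages, up to 6 called members per list along its main direction and 3 against it, or up to 2 members where none was called, measured isoform pairs, and, of the genes called in WT and for the genotype difference, the 6 largest differences each way. The text gives a part of these and adds some genes chosen after their values were seen (DMD, UTRN, TOP2A, KIF11, CSRP3, COL1A1, FN1, MYLK2, GAPDH and PGK1).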

Additional observations from a re-analysis of the deposited data

Results flagged for a closer look

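The difference between the changes with age in the 2 genotypes, tested with limma, marked these results for a closer look. Values are the WT change minus the DMD KO change in log2 units, and a negative value means that the WT change was the more negative. Among contractile and calcium genes the values were ACTC1 (-3.76), CASQ2 (-2.56), ASPH (-1.23), NCAM1 (-1.17), MYL4 (-0.92), ATP2A1 (1.02), HRC (1.04), MYOZ1 (1.09), MYL3 (2.07) and PVALB (4.49). Among genes of sugar and energy metabolism the values were PDK4 (-3.17), SLC25A4 (0.64), GYG1 (0.91), PRKAA2 (1.55), NDUFB1 (1.75), PHKA1 (1.76) and PFKFB1 (2.27). Among collagen chains the values were COL12A1 (-2.67), COL1A1 (-2.50), COL3A1 (-2.39), COL1A2 (-2.26), COL14A1 (-2.18), COL6A3 (-1.76) and COL5A2 (-1.54). Among other matrix and fibroblast genes the values were POSTN (-4.79), ASPN (-4.13), VCAN (-3.56), FN1 (-2.78), LOX (-2.57), FNDC1 (-2.10), SPARC (-1.82), BGN (-1.78), MFAP5 (-1.77), FBN1 (-1.41) and PRRX1 (-1.06). Among genes of cell division, chromatin and fetal growth the values were MEST (-3.43), TOP2A (-2.53), KIF11 (-2.46), HMGN2 (-1.39), NNAT (-1.23), DNMT1 (-1.08) and KIF20A (-0.75). Among genes of translation, splicing and stress the values were GSTM3 (-1.14), EIF4A1 (-1.12), PRDX1 (-0.98), EEF1A1 (-0.84), HSPB6 (-0.73), PTBP1 (-0.48) and ATF4 (1.60). For the other genes they were ASPA (-3.48), ANXA2 (-2.54), MSMO1 (-2.04), RGS5 (0.99), PSTPIP2 (1.40), PTER (1.42), FBXO40 (1.44), SPOPL (1.49), ZNF106 (1.76), WWP1 (1.96), CCDC160 (2.00), FMO2 (2.59) and TEX9 (2.99). No value bears on the cause of these differences, which was not tested.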

How the results depend on the processing

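The 119 called genes of the text kept their direction in each alternative that held them, and the filter on dim probe sets held 105 of them. Genes that were not called changed sign in some fits. Leaving out each WT array in turn, MYH1 ran from -0.283 to 0.107 (the latter without replicate 1 at 2 days), MYL1 from -0.001 (without replicate 1 at 3 months) to 0.096, and ENO1 from -0.271 to 0.087 (0.035 and 0.087 without replicate 2 at 2 days and at 3 months). MYL1 was -0.043 with array weights. With the WT arrays alone, 40 probe sets (29 named genes) were called and 23 of the 119 kept their call. That fit has fewer samples and degrees of freedom. The WT groups also had the larger spread (median SD 0.189 and 0.157, against 0.12 and 0.139 in DMD KO), which the main fit pools. The part of each in the lower count was not tested. Array weights gave 2562 probe sets in WT (1382 named genes, 998 probe sets higher and 1564 lower) and 2760 for the difference between genotypes (1508 named genes), and the weights did not fully converge. The labels do not tie WT animals of the same replicate number. Correlations of same-numbered deviations from the group means were 0.286, -0.495 and 0.182, and those of unlike-numbered ones ran from -0.656 to 0.657. Deviations within 3 arrays depend on one another, so these values cannot decide whether animals were paired. With the replicate block 325 probe sets (183 named genes) were called in WT and 580 (351 named genes) for the difference, and 78 of the 119 genes kept their call. Leaving out each WT array in turn gave 368 to 757 probe sets and 201 to 424 named genes in WT, and leaving out each array in turn gave 789 to 1265 probe sets and 454 to 732 named genes for the difference. Leaving out each DMD KO array, chosen after the data were seen, gave 496 to 615 probe sets in WT. Counts within 1.5 times of the reported ones came from eBayes with trend and robust settings (556 probe sets), quantile normalization (895), median centring (599), a filter on dim probe sets (640), 1 probe set for each repeated set of values (616) and the mean of all probe sets of a gene (388 named genes). The higher calls were 375 of 633 probe sets, and 288 of 757 without WT replicate 3 at 2 days. The cause of these shifts was not tested. Dim genes have no reliable fold, and 3 arrays a group limit what could be called.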

Other observations

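The 5 genes above the 95th percentile with the smallest differences between the ages were PDHX, DNAJA1, CRYAB, SLC2A2 and an unnamed locus. SLC2A2, a glucose transporter known from liver and pancreas, was listed at 13.47, 13.48 and 13.52 in newborns and 13.56, 13.48 and 13.43 at 3 months, among the brightest values of the table. Whether the probe set reads this gene could not be checked here, so the values belong to a probe set annotated as SLC2A2. CRYAB, a small heat shock protein, had the same mean at both ages (10.61) with an SE of the difference of 0.32.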
